A study of Drosophila melanogaster with 12 samples.

Results

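State 6 is the Polycomb repressed class of a map that sorts the Drosophila melanogaster genome into 9 chromatin states. Its members were taken from the deposited list of regions as every region with state number 6 on arms 2L, 2R, 3L, 3R and X, which gave 1825 regions of the 42126 in the list. A further 16 State 6 regions lay on chromosome 4 and 5 on heterochromatin names and were left out. The map came from the modENCODE project and was defined before this study, not from its testes. The cells it was mapped in are not given in the sources used here. A State 6 region is therefore a place that was Polycomb repressed in the mapped cells, and no Polycomb mark was measured in the tumors themselves.

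The study mapped GFP-tagged H3A31S, H3.3S31A, H3.3 and H3 by chromatin immunocleavage (ChIC), in which an antibody to GFP guides micrococcal nuclease to the tagged nucleosomes and the cleaved DNA is sequenced. H3A31S is canonical H3 with the residue of H3.3 at position 31, and H3.3S31A is H3.3 with the residue of H3 there. All 4 histones were expressed from UASp cassettes under the germline driver nanos-Gal4 in testes that also overexpressed the ligand Unpaired in the germline, which fills the testis with stem-cell-like germ and somatic cyst cells, and each histone had 3 libraries, each from pooled testes of young males. The H3A31S flies carried another nanos-Gal4 line than the other 3 genotypes.

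Reads per region were deposited in 12 columns with no names, and no source used here ties a column to a library. None of these columns was used for any value below, so nothing is said of where the tagged histones lie and no library or histone was compared with another. What follows describes the State 6 regions themselves, from the deposited list and the reference genome. The list has no replicates, no test was run, and the intervals below cover counting error only.

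Polycomb group proteins keep developmental genes silent where they are not needed. Polycomb repressive complex 2 trimethylates H3 at lysine 27, and complex 1 binds that mark and compacts the chromatin. In flies, both complexes are brought to DNA by Polycomb response elements, which often hold sites of the DNA-binding proteins Pho and GAGA factor. In the testis, relief of Polycomb silencing is part of the move of germ cells into the spermatocyte program.

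On arm 2L the listed coordinates could be set against genes and sequence of the dm6 genome build, because the best match between State 1, the active promoter class, and annotated transcription start sites (TSSs) fell within 400 bp of the listed position in 23 of 23 windows along the arm. Genes, sequence and positions are therefore given for 2L alone, and for the other arms only numbers and lengths.

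The sequence of State 6 is shown first by 3 stretches of 300 bases on 2L, from domains named after the developmental genes in them. Each is written on the plus strand, lies in 2 State 6 regions, touches no annotated exon, has no base masked as a repeat and holds at least 2 matches of each of 2 motifs. Capitals mark the motifs, which are GAGAG for GAGA factor and GCCAT for the core of the Pho site, or their reverse complements where the match is on the minus strand. Only 8 stretches of 2L met all these conditions. They were picked for their matches, so they show what such a stretch looks like and are not typical of State 6. A match is a run of letters and not a bound site.
drm, inside the gene, chr2L:3540001-3540300: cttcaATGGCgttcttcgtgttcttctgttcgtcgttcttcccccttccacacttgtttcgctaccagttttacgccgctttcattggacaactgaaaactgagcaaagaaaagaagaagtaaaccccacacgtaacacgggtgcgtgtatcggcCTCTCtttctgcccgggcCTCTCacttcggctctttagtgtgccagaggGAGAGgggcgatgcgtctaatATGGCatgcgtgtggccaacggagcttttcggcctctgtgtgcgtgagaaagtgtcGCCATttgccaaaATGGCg
SoxN, 245 bp upstream of the gene, chr2L:8825101-8825400: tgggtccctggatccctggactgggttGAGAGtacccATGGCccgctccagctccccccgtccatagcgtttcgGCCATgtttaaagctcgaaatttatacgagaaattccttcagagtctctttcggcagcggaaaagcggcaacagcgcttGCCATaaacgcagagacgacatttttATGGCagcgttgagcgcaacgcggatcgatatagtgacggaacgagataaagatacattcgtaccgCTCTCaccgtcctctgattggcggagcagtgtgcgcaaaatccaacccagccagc
H15, 12680 bp upstream of the gene, chr2L:5391301-5391600: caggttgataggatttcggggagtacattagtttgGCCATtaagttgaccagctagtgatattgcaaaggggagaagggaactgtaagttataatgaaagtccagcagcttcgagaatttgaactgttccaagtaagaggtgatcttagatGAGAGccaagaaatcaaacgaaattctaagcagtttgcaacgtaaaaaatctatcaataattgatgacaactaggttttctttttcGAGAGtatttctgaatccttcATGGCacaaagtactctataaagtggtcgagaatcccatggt

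The stretch within drm, which encodes a small zinc finger protein of the gut and leg, had 3 GAGAG and 4 GCCAT matches. That near SoxN, a Sox factor of the neural primordium, had 2 and 4, and that near H15, a T-box factor of the heart and the ventral leg, had 2 and 2.

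State 6 regions were mostly short, with a few very long ones that held most of the length. The median State 6 region was 1800 bp, against 2400 bp over all states, and 30.5% of State 6 regions were under 1000 bp, against 17.1% over all states. At the other end, 60 State 6 regions (3.29%) spanned at least 50 kb, against 1.31% over all states. The longest 183 regions, each of at least 22.8 kb, held 62.8% of the summed length of State 6. Only State 9 (3.74%), State 8 (4.29%) and State 7 (3.36%) had a larger share of regions of at least 50 kb. State 6 made up 4.43% of the regions of the main arms and 6.21% of their summed length.

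The regions were spread over all main arms. There were 394 on 2L, 402 on 2R, 303 on 3L, 430 on 3R and 296 on X. State 6 covered 9.63% of the covered bases of 2L, 7.40% of 2R, 5.98% of 3L, 9.56% of 3R and 6.43% of X. The longest region, 240200 bp, was on 3R, and the longest on each of the other arms was between 73400 bp and 120400 bp.

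Most bases of the list lie in 2 regions, which need not have the same state. State 6 covered 9.31 Mb (7.86% of the covered bases). Of this, 5.21 Mb lay in 2 State 6 regions, 3.96 Mb lay in a State 6 region and a region of another state, and 0.138 Mb lay in 1 region only. State 6 thus had the same state in both regions over 56.8% of its doubly covered bases, rank 4 of the 9 states. State 1 had 71.3%, State 8 had 10.4% and State 9 had 47.6%. Where the regions differed, the other one was State 9 over 46.3% of the bases, State 4 over 22.3% and State 3 over 15.8%. State 1 took 0.541% and State 5 took 1.74%. State 9 covered 53.4 Mb of the 118 Mb covered on the main arms. That cover includes bases that are State 9 in both regions, so it is no background for the 46.3%, and none was computed. Of the bases of State 9, 3.43% also lay in a State 6 region, against 4.23% for State 3 and 4.15% for State 4.

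State 9 bordered State 6 at most of its edges. At 3360 points a State 6 region ended where a region of another state began, or the reverse, and the abutting region was State 9 at 2784 of them (82.9%). State 9 was at 17.7% of the sides of all other such edges. State 1 abutted State 6 at 1.01% of its edges, against 16.8% of the sides elsewhere, and State 8 at 0.179%. In this map, Polycomb repressed regions rarely abutted the active promoter class.

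**Figure D1:**
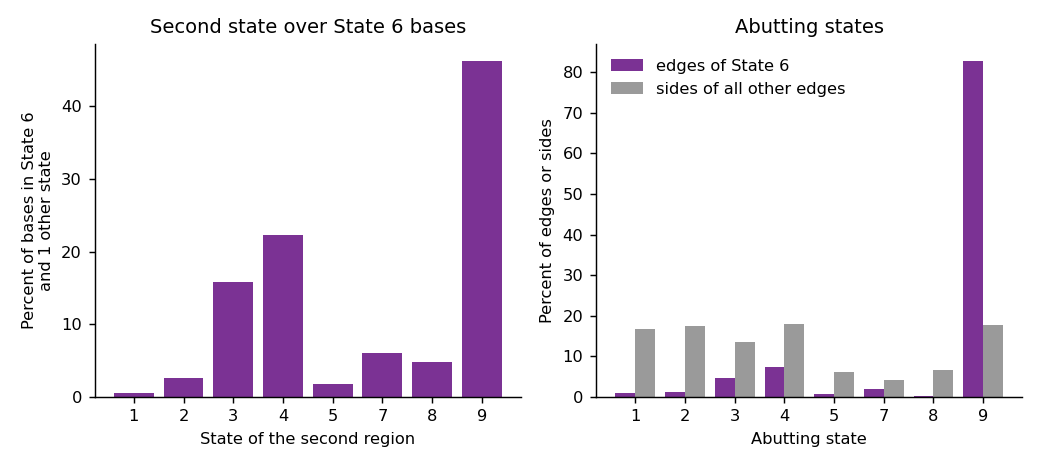
State of the other region over bases with 1 State 6 region (left, percent of those bases) and state of the region that abuts a State 6 edge (right, percent of 3360 edges, purple) or stands at a side of any other edge (right, percent of sides, grey). State 9 is the tallest purple bar in both panels, at 46.3% and 82.9%. The left panel has no background bars. State 9 covered 53.4 Mb of the 118 Mb covered on the main arms, which includes bases that are State 9 in both regions.

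State 6 regions that touch or overlap were joined into 1264 domains. Their median length was 1400 bp, and 42 were at least 50 kb long. The 256 domains with at least 1 stretch in 2 State 6 regions had a median of 16100 bp and held 75.0% of the length. The other 1008 domains had a median of 1000 bp, and 2 of them were at least 50 kb long. A domain with doubly covered bases joins at least 2 regions, so its greater length follows in part from how domains were built. Of the 42 domains of at least 50 kb, 36 had at least 50% of their bases in 2 State 6 regions and 6 had less, down to 0.

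**Figure D2:**
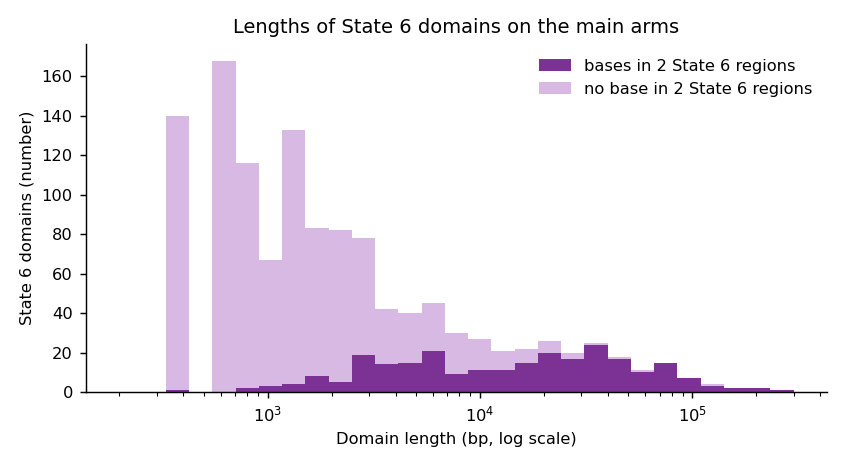
Number of State 6 domains of the main arms by length (bp, log scale), stacked by whether any base lies in 2 State 6 regions (dark) or none does (light). The dark domains have a median of 16100 bp and the light ones of 1000 bp. All lengths are multiples of 200 bp, which leaves a gap between the shortest bars.

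Arm 2L had 251 of these domains, and 60 of them held the TSS of a protein-coding gene. The 10 longest came to 1040 kb, or 47.2% of the State 6 bases of the arm, and held 32 protein-coding and 42 lncRNA TSSs. The shortest of the 10 was 51.8 kb, and the next domain, left out by the rule, was 48.6 kb. Of the 10 longest, 7 held the TSS of at least 1 gene of a list of developmental regulators that is described further on. Over all 251 domains of the arm, 23 did. The rest of the 10 longest held chinmo, SoxN and sens-2, factor genes that are not on that list.

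The longest domain of 2L ran for 189.2 kb (11284763 to 11473962) over salm and salr, which encode zinc finger factors that pattern the wing and the tracheae, with Osi21 and CG14926. It was built of 25 State 6 regions and was State 6 in both regions over 71.6% of its bases. The next, 142.2 kb (5367163 to 5509362), held 2 protein-coding TSSs, those of the T-box genes H15 and mid, with 7 lncRNA TSSs, and was State 6 in both regions over 92.5%. A domain of 119.0 kb (12568363 to 12687362) held the POU homeodomain genes nub and pdm2 with Ref2 and Nepl7, at 98.3%. Each of these domains holds a pair of related factors.

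The fourth domain was of another make. It ran for 112.6 kb (21795763 to 21908362) over tsh, a zinc finger gene of trunk identity, with CG1421, CG1428 and CG11629. It was a single State 6 region, and none of its bases lay in 2 State 6 regions. The domain over chinmo, 89.2 kb (1615363 to 1704562), was State 6 in both regions over 33.6%. chinmo encodes a BTB zinc finger protein that keeps the somatic stem cells of the testis and their male identity, and its TSS at 1651258 lay in 2 State 6 regions.

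The Wnt ligand genes wg, Wnt6 and Wnt10 shared a domain of 92.2 kb (7281963 to 7374162), at 93.7%. The zinc finger genes odd, sob and drm shared 87.8 kb (3530763 to 3618562) with IFT57 and CG43815, at 90.2%. SoxN lay with CG32986 and CG32987 in 78.8 kb (8785163 to 8863962), at 83.5%. The LIM homeodomain gene tup was the only protein-coding gene with its TSS in 77.4 kb (18859963 to 18937362), at 80.1%, and this domain also held mir-4946. The last of the 10, 51.8 kb (6799963 to 6851762) at 95.4%, held the zinc finger gene sens-2 with Daao2, CG17375, CG17376 and CG17377. Genes of unrelated kinds thus lay in the same domains as the developmental factors.

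State 6, like every state of 2L but State 1, held a smaller share of TSSs than of bases. Of the 2657 protein-coding genes of 2L, 113 had their TSS in a State 6 region (4.25%, 95% Wilson interval 3.55 to 5.09%), while State 6 covered 9.63% of the arm. There were 51.3 protein-coding TSSs per Mb of State 6, against 61.4 in State 8, 65.9 in State 2 and 86.3 in State 9. State 1, the promoter class, had 619, and through it the other covered bases together had 123. Of the 113, 51 lay in 2 State 6 regions (1.92% of all genes) and 62 in 1. The 113 genes had a median length of 2.35 kb, against 1.97 kb for the other 2544.

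Among noncoding RNA genes, lncRNA genes were denser in State 6 than elsewhere. Of the 804 genes annotated as ncRNA, 96 had the TSS in State 6 (11.9%, 9.88 to 14.4%), or 43.6 per Mb of State 6 and 33.9 per Mb elsewhere. Of the 524 genes with lncRNA in their symbol, 87 had the TSS in State 6 (16.6%, 13.7 to 20.0%), or 39.5 per Mb of State 6 and 20.9 per Mb elsewhere, and 49 of the 87 lay in 2 State 6 regions. Other noncoding classes varied. The TSS was in State 6 for 2 of 56 miRNA genes (3.57%), 1 of 41 snoRNA genes (2.44%) and 5 of 41 tRNA genes (12.2%). Annotated transposable elements started less densely in State 6, at 30.0 per Mb, than elsewhere, at 41.5 per Mb. By bases, State 6 was 12.4% exon, 28.7% intron and 58.9% intergenic, against 27.9%, 41.4% and 30.7% for the other covered bases. State 9, which flanked most State 6 regions, was 42.1% intergenic and State 8 50.6%.

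Developmental regulators of 2L, a list of 40 genes of transcriptional regulators and ligands, mostly had their TSS in State 6. It was 32 of 40 (80.0%, 65.2 to 89.5%), against 4.25% of all protein-coding genes of the arm. In 2 State 6 regions it was 22 of 40 (55.0%), against 1.92% of all. Many genes of the list are textbook Polycomb targets and were listed with that known. The list was also chosen with earlier results of these data known. The share is therefore a description. It is no check of the label of the state and no independent evidence about these genes, and its interval does not cover that choice. They lay in 23 domains with a median, over the 32 genes, of 48.4 kb (0.8 to 189.2 kb), and 14 of them in the 10 longest domains. The other 81 genes had a median domain of 19.8 kb (0.4 to 189.2 kb), and 18 of them shared a domain with the TSS of a regulator. They are the State 6 genes left off the list, and they too include factor genes, such as SoxN, sens-2, chinmo and tj. The contrast is thus between a chosen list and its remainder. Of these 81 genes 29 (35.8%) had the TSS in 2 State 6 regions, against 22 of the 32 regulators (68.8%).

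**Figure D3:**
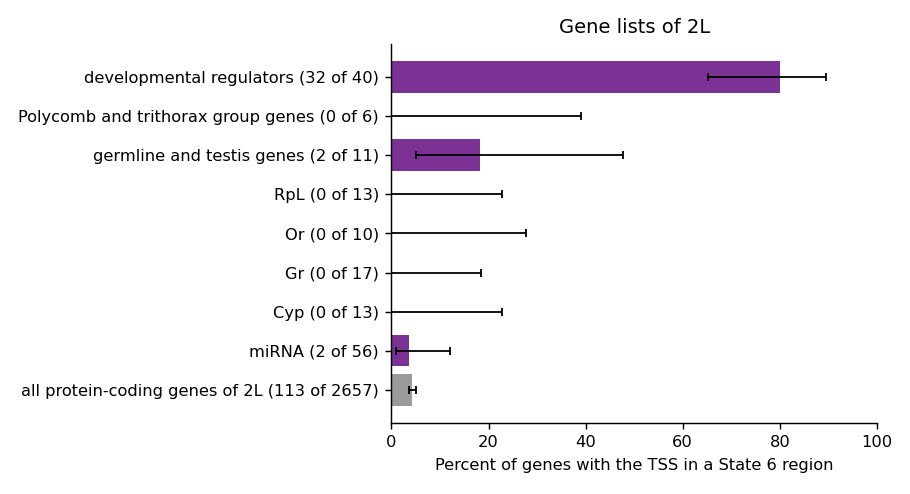
Percent of the genes of each list on 2L whose TSS lies in a State 6 region, with 95% Wilson intervals and, in the labels, the counts. Developmental regulators stand at 80.0% and all protein-coding genes (grey, lowest bar) at 4.25%.

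The signalling ligands split. All 4 Wnt genes of the list (wg, Wnt4, Wnt6 and Wnt10) had their TSS in 2 State 6 regions. The BMP ligand gene dpp had its TSS in State 4 in both regions, although State 6 covered 60.0% of the gene. Wnt4 was the reverse, with its TSS in State 6 but 15.7% of the gene covered.

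The segmentation gene odd, the paired gene prd and the forkhead genes slp1 and slp2 had State 6 in both regions at the TSS. So did sob and drm, the zinc finger genes beside odd. At least 1 State 6 region covered every base of each of these genes. The same held for cad, the homeobox gene of posterior fate, and the homeobox gene Gsc. The eye determination genes eya and dac, the LIM gene tup, nub, pdm2, H15, mid, salm, salr and gcm2, a glial factor gene, made up the rest of the genes with State 6 in both regions. At least 1 State 6 region covered every base of 23 of the 40 genes, all among the 32 with the TSS in State 6. The same held for 50 of the 81 other genes with the TSS in State 6. The median share of the gene in State 6 was 100% in both groups, so full cover was not particular to the regulators.

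For 10 regulators the regions over the TSS differed. esg and wor, Snail family zinc finger genes, and the homeobox gene al had State 6 with State 8. The LIM homeodomain gene Lim3 and the glial factor gene gcm had State 6 with State 9. The zinc finger genes noc and elB and the BTB gene ab had State 6 with State 3, tio had it with State 7, and tsh with State 1. The paralogs tsh and tio thus had a State 6 region each, beside unlike partners.

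The 8 regulators with no State 6 at the TSS were dpp, bsh, sna, ush, bowl, amos, dimm and net. sna, the third Snail family gene of the cluster with esg and wor, lay in State 8 and State 9. bsh lay in State 4 and State 9, dimm in State 7 and State 8, amos in State 2 in both regions and net in State 3 and State 9. ush had State 1 and State 2 and bowl, a relative of odd, had State 3 and State 4. Membership of a gene family thus did not fix the state.

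The other lists were short, and their counts stand beside a share of 4.25% over all protein-coding genes of 2L. None of the 6 Polycomb and trithorax group genes of 2L (esc, escl, Sfmbt, kis, Utx and Kdm5) had its TSS in State 6. The Wilson interval for 0 of 6 reaches 39.0%, so no lack of State 6 can be read from it. All 6 lay in State 1, the active promoter class, as did 1088 of all 2657 protein-coding genes (40.9%). Of 11 germline and testis genes, 2 were in State 6 (18.2%, 5.14 to 47.7%), tj and chinmo, each in 2 regions. tj encodes a Maf factor of the somatic cells of the gonad. The germline genes vas (State 4 and State 9), piwi (State 7 in both) and aub (State 1 and State 2) were not in State 6. Nor were the sperm chromatin genes ProtA and ProtB and the testis TAF gene nht, all in State 8 and State 9, or twe, the meiotic Cdc25, in State 1 in both regions. Both State 6 members of the list are known from somatic cells of the gonad and from other tissues.

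No odorant receptor (0 of 10), gustatory receptor (0 of 17), cytochrome P450 (0 of 13), RpL (0 of 13) or RpS gene (0 of 6) had its TSS in State 6. Lists this short allow a sizeable share even at 0, up to 27.8% for the odorant receptors and 18.4% for the gustatory receptors by the Wilson interval. All these intervals include the 4.25% of all protein-coding genes of 2L, so no lack of State 6 can be read from them. Of 56 miRNA genes 2 were in State 6 (3.57%), mir-4946 and mir-bft, each with State 9 in the other region. Ir21a, a cooling receptor gene, and the cuticle gene Cpr35B were the members of 4 Ir and 5 Cpr genes in State 6. Outside these lists, all 4 Sfp24B seminal fluid genes had their TSS in State 6, which was seen only after the values were known. They are neighbours, with TSSs from 3668551 to 3670581 in a single domain of 19.8 kb shared with Drgx, so they count as 1 place. Sfp24Bb and Sfp24Bc had State 9 in the other region.

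State 6 differed little from the rest of 2L in base composition. Its GC content was 42.2%, against 41.8% in the other covered bases, and 16.3% of it was masked as repeat, against 17.7%. GAGAG occurred 1.45 times per kb of State 6 (1.40 to 1.50, exact Poisson interval), against 1.30 per kb elsewhere. State 3 (1.64) and State 7 (1.47) had more. GCCAT occurred 2.50 times per kb (2.43 to 2.57), against 2.40 elsewhere, and State 9 (2.60) and State 8 (2.58) had more. Stretches of 300 bases with any match of each motif were 15.9% of 7098 stretches in State 6 and 14.6% of 68644 outside it. This is a looser rule than that of the stretches printed above. Neither motif set State 6 apart from every other state.

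The 250 bases before the TSS were searched for both motifs in the regulators, the other State 6 genes and all genes. GAGAG was found there, on either strand, in 23 of the 32 developmental regulators in State 6 (71.9%, 54.6 to 84.4%) and in 24 of the 81 other genes in State 6 (29.6%, 20.8 to 40.3%), against 675 of all 2657 genes (25.4%). It was also found in 5 of the 8 regulators with no State 6 at the TSS (62.5%, 30.6 to 86.3%), among them sna with 5 matches. Over all 113 genes with the TSS in State 6, GAGAG was found in 47 (41.6%, 32.9 to 50.8%). The share was thus high in the listed regulators, of which only 8 had no State 6, and lower in the State 6 genes left off the list. The latter include factor genes such as SoxN and tj, so this does not set regulators against genes of other kinds. The other states were not compared. GCCAT was found in 14 of the 32 (43.8%, 28.2 to 60.7%), in 21 of the 81 (25.9%, 17.6 to 36.4%), in 4 of the 8 (21.5 to 78.5%) and in 908 of all 2657 (34.2%). The GC content of the same windows was 51.6% in the 32, 39.6% in the 81, 46.0% in the 8 and 37.1% over all genes, and its part in the motif shares was not tested.

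**Figure D4:**
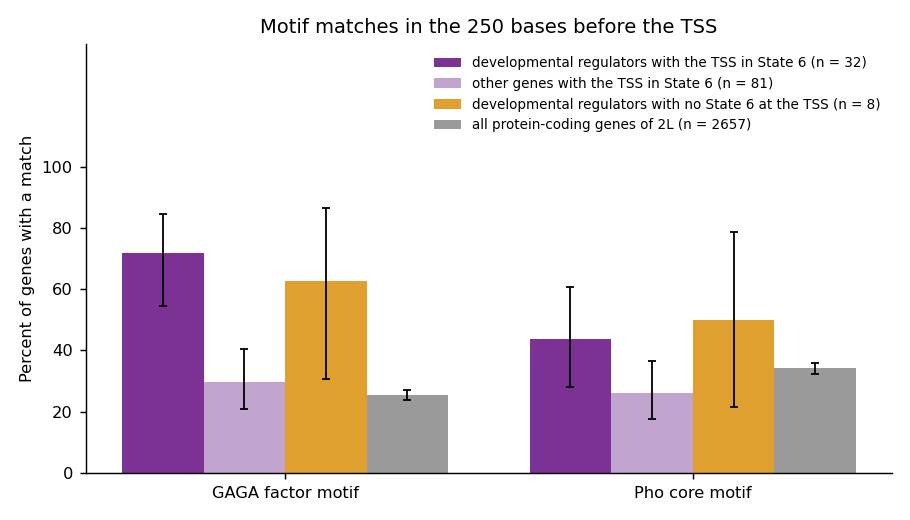
Percent of genes of 2L with at least 1 match in the 250 bases before the TSS, for GAGAG (GAGA factor) and GCCAT (Pho core), with 95% Wilson intervals. For GAGAG the regulators stand at 71.9% in State 6 and 62.5% outside it, the other State 6 genes at 29.6% and all genes at 25.4%.

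Windows of 4 regulators are printed below in the direction of the gene, from 250 bases upstream to the base before the TSS, with the same motifs in capitals. tio and Gsc had the most GAGAG matches of the windows that could be printed, salr lies in the longest domain, and wg shows that a State 6 gene may have none.
tio, plus strand, chr2L:22018958-22019207: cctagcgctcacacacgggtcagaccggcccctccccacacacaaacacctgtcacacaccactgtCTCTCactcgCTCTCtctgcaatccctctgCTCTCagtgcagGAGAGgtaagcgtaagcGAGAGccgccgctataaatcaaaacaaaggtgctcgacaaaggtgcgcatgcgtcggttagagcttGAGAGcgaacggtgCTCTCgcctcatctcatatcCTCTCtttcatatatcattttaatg
Gsc, minus strand, chr2L:594686-594935: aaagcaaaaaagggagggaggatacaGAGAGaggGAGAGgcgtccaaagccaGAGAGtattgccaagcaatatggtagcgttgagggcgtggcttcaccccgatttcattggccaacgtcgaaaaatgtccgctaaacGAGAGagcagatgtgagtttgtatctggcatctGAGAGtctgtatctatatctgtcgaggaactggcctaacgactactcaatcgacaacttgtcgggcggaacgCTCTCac
salr, plus strand, chr2L:11358623-11358872: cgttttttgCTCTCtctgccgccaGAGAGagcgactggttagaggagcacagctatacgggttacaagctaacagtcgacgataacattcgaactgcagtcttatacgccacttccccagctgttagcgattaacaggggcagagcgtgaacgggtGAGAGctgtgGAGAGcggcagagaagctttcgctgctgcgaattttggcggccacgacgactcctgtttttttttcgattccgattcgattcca
wg, plus strand, chr2L:7306909-7307158: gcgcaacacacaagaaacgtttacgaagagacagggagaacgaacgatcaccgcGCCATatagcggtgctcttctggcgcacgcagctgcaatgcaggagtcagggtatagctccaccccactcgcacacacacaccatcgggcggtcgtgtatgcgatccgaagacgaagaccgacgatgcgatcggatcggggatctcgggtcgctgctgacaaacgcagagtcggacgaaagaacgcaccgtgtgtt

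There were 8 GAGAG matches before tio, 6 before Gsc, 4 before salr and 0 before wg. The wg window held 1 GCCAT match and the other 3 held none.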

How the data were processed

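ChIC libraries were made by the authors from 12 samples of testes (4 histones, 3 libraries each), aligned by them to dm6 with Bowtie2 and filtered for mapping quality (limit of 10) and duplicates. Their read counts per region were deposited in 12 columns with no names, which no label or method ties to a library. A summed density of these columns had been planned. It was computed, then left out, and appears nowhere. Depth per sample is not given, because no column is tied to a library. The deposited region list, taken by the authors from modENCODE, holds positions and a state number as a class, in no measured unit, with its build not stated.

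Starts in the list count from 0 and were raised by 1 for printing. Genes, with 1 TSS each (the outermost 5′ end), came from the Ensembl annotation of dm6, and sequences from RefSeq Release 6, on 2L alone. Python 3.11.15 was used with numpy 2.4.6, pandas 2.3.3, scipy 1.17.1 and matplotlib 3.10.9, and the coverage and motif counts were tested on simulated data. Matches were counted on both strands without overlap of the same motif and strand. Intervals are Wilson (shares) or exact Poisson (densities) at 95%.

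Genes were named if their TSS lay in the 10 longest domains of 2L or if they were on the lists. Alternatives were other TSS sets, region lengths, joining gaps, arms and masking. Members and lists were chosen with earlier results of these data known.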

Additional observations from a re-analysis of the deposited data

How the results depend on the processing

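No paired analysis was possible because the read columns carried no names and were not used here, and no library could be left out. With bases in 2 State 6 regions required, 1.92% of the genes of 2L and 55.0% of the developmental regulators had their TSS in State 6, against 4.25% and 80.0%, and the GC content was 42.1%. With every transcript TSS, RefSeq genes, regions of at least 1000 bp or the last 1 Mb of 2L left out, the share of genes lay between 4.06% and 4.26%, and that of the regulators was 70.4% with every transcript TSS and 77.5% with regions of at least 1000 bp. The share of State 6 in both regions was 57.6% without X and 52.6% on 2L alone. Against 1264 domains, joining over gaps of 1000 bp gave 1111 and over gaps of 5000 bp 787, and leaving out regions under 1000 bp gave 800. With masked bases left out, GC content was 45.0% in State 6 and 44.8% in the rest, and GCCAT came to 2.72 per kb in State 6 and 2.63 in the rest. Summed reads per kb and their settings are not given, because the read columns were left out.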
